A study of Mus musculus with 11 samples.

Results

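The transcriptional coactivators YAP and TAZ, their DNA-binding partner TEAD1, and 7 genes that control them or respond to them were measured in mouse orthotopic pancreatic tumors with and without stromal protein kinase N2 (PKN2). The 10 genes were a fixed list of names: Yap1, Wwtr1 (which encodes TAZ), Tead1, Lats2, Amotl2, Ajuba, Ccn1, Ccn2, Ankrd1 and Axl. They were found by symbol among the 54232 rows of the deposited count table, and all 10 passed the filter on low counts that left 16536 genes for testing. For none of the 10 did the difference between PKN2 KO and WT tumors pass the adjusted threshold of 0.05 (edgeR's quasi-likelihood test), where 0.0181% of all tested genes were called higher and 0% lower. The closest was Axl, a receptor tyrosine kinase, which was 1.33-fold higher in KO tumors (95% interval 1.06 to 1.67) before correction for the number of genes tested.

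The study asked how loss of PKN2 from the tumor stroma changes pancreatic cancer, and bulk RNA-sequencing was carried out on 11 tumors, 6 KO and 5 WT. Every host was an adult female C57BL/6 mouse with 1 copy of a tamoxifen-inducible Cre recombinase at the Rosa26 locus (RosaCreERT +/WT). WT hosts were PKN2 +/+, KO hosts were PKN2 fl/fl, and both received tamoxifen. Each pancreas was injected with 1000 TB32048 cells, a single mouse pancreatic ductal adenocarcinoma line with intact PKN2, so the deletion was in host cells only. The Rosa26 promoter is active in most cell types, and the deletion was therefore not limited to fibroblasts. Replicate letters name tumors from separate animals. Pkn2 itself had a log2 fold change of -0.002 (KO minus WT, SE 0.21, edgeR adjusted p = 0.996). Carcinoma cells with intact PKN2 are part of each sample, so the level of Pkn2 gives no check of which hosts carried the deletion. Why its level did not differ was not tested. In bulk tumors, fewer cells of a type and less RNA per cell cannot be told apart.

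YAP and TAZ carry no DNA-binding domain of their own. They enter the nucleus and bind TEAD factors when the Hippo kinases MST1/2 and LATS1/2 are inactive, and are held in the cytoplasm or degraded when LATS kinases phosphorylate them. Stiff matrix and tension of the actin cytoskeleton favor their nuclear form, and in the pancreas they are known for their activity in activated stellate cells and fibroblasts as well as in carcinoma cells. Because this control acts largely on the protein and its location, transcript levels of Yap1 and Wwtr1 do not report YAP or TAZ activity.

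TEAD factors recognise a short element, searched here as GGAATG or, on the other strand, CATTCC. The sequences below are shown because they hold this element in genes of the list, given in capitals. They are the 250 bases before the transcription start (RefSeq, GRCm38.p6), 5′ to 3′ on the strand of the gene, for Ccn1 (chr3:145649986-145650235, minus strand), Axl (chr7:25788734-25788983, minus strand), Yap1 (chr9:8004597-8004846, minus strand) and Ajuba (chr14:54577662-54577911, minus strand). None of these 4 windows overlaps an exon of its gene in GENCODE M21. For Ankrd1 and Amotl2, whose windows overlap 5′ exons of longer GENCODE transcripts, only the 30 bases around each match are shown (chr19:36120037-36120066 and chr19:36119950-36119979, minus strand, and chr9:102717727-102717756, plus strand).
Ccn1: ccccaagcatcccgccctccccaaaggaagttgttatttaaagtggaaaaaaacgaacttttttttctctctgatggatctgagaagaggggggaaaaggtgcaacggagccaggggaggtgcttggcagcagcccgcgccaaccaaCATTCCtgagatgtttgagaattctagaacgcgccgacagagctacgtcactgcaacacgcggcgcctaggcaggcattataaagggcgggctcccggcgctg
Axl: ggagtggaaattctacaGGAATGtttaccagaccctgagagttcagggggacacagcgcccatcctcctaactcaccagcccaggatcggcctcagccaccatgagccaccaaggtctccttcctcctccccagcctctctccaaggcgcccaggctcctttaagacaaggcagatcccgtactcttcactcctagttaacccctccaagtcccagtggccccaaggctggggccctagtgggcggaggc
Yap1: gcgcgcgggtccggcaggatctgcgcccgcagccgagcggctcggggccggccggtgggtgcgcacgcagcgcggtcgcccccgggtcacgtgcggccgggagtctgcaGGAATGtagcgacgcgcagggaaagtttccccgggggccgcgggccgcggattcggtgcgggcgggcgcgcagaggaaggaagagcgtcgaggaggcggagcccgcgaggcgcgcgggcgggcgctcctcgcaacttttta
Ajuba: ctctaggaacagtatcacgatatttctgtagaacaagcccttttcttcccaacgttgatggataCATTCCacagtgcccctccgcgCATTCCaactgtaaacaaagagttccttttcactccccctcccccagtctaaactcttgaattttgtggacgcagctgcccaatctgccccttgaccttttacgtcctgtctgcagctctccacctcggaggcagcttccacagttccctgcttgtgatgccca
Ankrd1, first match: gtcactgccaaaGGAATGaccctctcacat
Ankrd1, second match: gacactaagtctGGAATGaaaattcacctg
Amotl2: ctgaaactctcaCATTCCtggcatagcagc

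The first base of the match lay 103 bases before the start in Ccn1, 233 in Axl, 141 in Yap1 and 65 in Amotl2. Ajuba held matches at 186 and 164 bases before the start, and Ankrd1 at 210 and 123. Promoter windows from 250 bases before to 50 bases after the start were found for 8 of the 10 genes, and for each of these 8 genes at least 1 window held the element. Over all RefSeq windows of that length, 14.7% held it, or 16.6% of genes counted by their best window. Of 10 other genes from a commonly used list of YAP/TAZ targets for which windows were found, 2 held it. In Lats2 the match began 4 bases past the start in 1 of 2 windows. Wwtr1 has 2 annotated starts, and the same match lay 136 bases before one and 170 before the other. A match describes the letters in the window and is not a measurement of TEAD binding.

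Library depth, the share of ribosomal RNA and the trend with exon length differed more among WT than among KO tumors. Gene counts summed to 22791627 to 28017673 per KO library and 16294128 to 31121422 per WT library. Ribosomal RNA took 0.308% to 0.739% of counts in KO tumors, 6.39% in WT replicate B and 0.241% to 1.404% in the other WT tumors. Where this share is used as a covariate below, it is therefore set mostly by WT replicate B. Across 16527 genes, the deviation of a gene from its mean correlated with its exon length at a Spearman rho of -0.496 in WT replicate A, -0.446 in B and -0.171 in C, against 0.269 in D, 0.372 in E and 0.100 to 0.327 in the KO tumors. Long transcripts were thus relatively depleted in WT replicates A, B and C. Epithelial and fibroblast markers were detected in every tumor. Summed CPM (counts per 1000000 of TMM-scaled library size) of 8 carcinoma epithelial markers ranged from 2692 to 5442 in KO and 3084 to 9359 in WT tumors, and all 8 had lower fitted levels in KO tumors, 3 at an unadjusted p under 0.05. Fibroblast markers summed to 4521 to 9602 CPM in KO and 2579 to 9475 in WT tumors, with 8 of 8 fitted higher and 0 at that p. Of 8 markers each, 6 for neutrophils, 8 for B cells and 3 for macrophages were higher at an unadjusted p under 0.05, as were 8.57% of all genes tested. Lower at that p were 1 endothelial, 1 acinar and 1 smooth muscle marker and 0 T cell markers, and 15.5% of all genes. The part of these shifts in the results below was not tested except where a value is given.

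Per kilobase of exon, Ccn2, Axl, Ankrd1 and Ccn1 were the most abundant of the 10 transcripts, and the kinase Lats2 had the lowest computed level. Mean levels in RPKM (CPM divided by exon length in kilobases; mean ± SD, n = 11 tumors) were 105.5 ± 60.1 for Ccn2, 88.6 ± 15.98 for Axl, 54.6 ± 19.2 for Ankrd1 and 42.7 ± 15.9 for Ccn1. The coactivators followed at 23.6 ± 4.93 RPKM for Wwtr1 and 11.9 ± 2.12 RPKM for Yap1, with Ajuba between them at 14.1 ± 3.004 RPKM. Amotl2 stood at 8.40 ± 2.65, Tead1 at 5.05 ± 1.68 and Lats2 at 3.22 ± 0.61 RPKM. In 3 cases, neighbors in this order differed by less than the larger of their SDs, namely Ccn2 and Axl, Ankrd1 and Ccn1, and Ajuba and Yap1. Wwtr1 exceeded Ajuba in 10 of 11 tumors, and Yap1 exceeded Amotl2 in 11 of 11. Lats2 shares 2955 exon bases with the gene model Gm49361 on the same strand, which had 0 counts in all tumors. Reads in the shared bases may not have been counted for either gene, whereas RPKM divides by all 6971 exon bases of Lats2. Its level may therefore be too low, and its last place is uncertain.

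**Figure D1:**
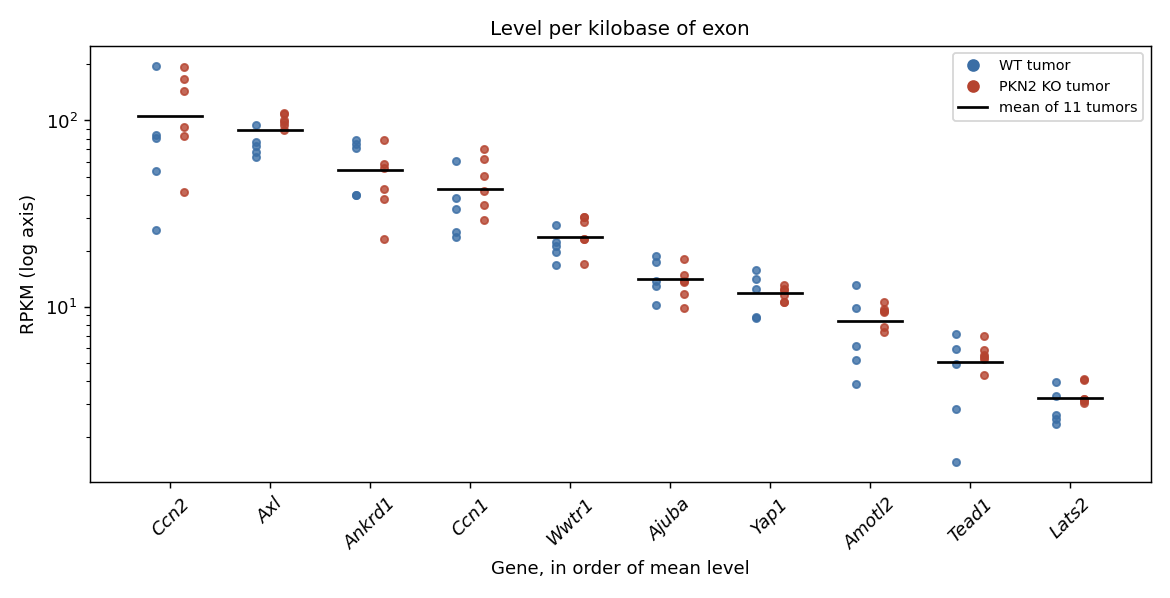
Level per kilobase of exon (RPKM, log axis) of the 10 genes in each tumor, in order of the mean of 11 tumors (black line), with WT tumors in blue and PKN2 KO tumors in red. Ccn2 had the highest mean at 105.5 RPKM and Lats2 the lowest at 3.22 RPKM, and points of the groups overlap for every gene. The Lats2 value may be too low, since Lats2 shares exon bases with another gene model.

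The fitted levels of Yap1 lay close together in the 2 groups. Yap1 (ENSMUSG00000053110, chromosome 9, 7931999 to 8004596, minus strand; GRCm38) had 97.9, 111 and 121 CPM as the lowest, median and highest of 6 KO tumors, and 81.7, 80.8, 115, 146 and 131 CPM in WT replicates A to E. The KO values lay inside the WT range, with WT replicates A and B below and D and E above all KO tumors. The log2 fold change (KO minus WT) was -0.03 with an SE of 0.17 and a 95% interval of -0.40 to 0.35 (edgeR, adjusted p = 0.941). With a length trend fitted for each library as an offset, it was -0.24 (edgeR, adjusted p = 0.188).

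Wwtr1, the gene of the YAP paralog TAZ (ENSMUSG00000027803, chromosome 3, 57455649 to 57575910, minus strand), spanned 80.8 to 145 CPM in KO tumors with a median of 123, against 79.8, 94.4, 102, 106 and 131 CPM in WT replicates A to E. KO replicates C, D and E were above every WT tumor, whereas KO replicate A was beside the lowest WT tumor. The log2 fold change was 0.24 (SE 0.18, 95% interval -0.16 to 0.63; edgeR, adjusted p = 0.433), and 0.19 with the length trend as an offset. The ratio of Wwtr1 to Yap1 counts within a library does not depend on a scaling factor per library, but it can depend on transcript length, since Yap1 has 9257 exon bases and Wwtr1 has 4779. Its mean on the log2 scale was 0.13 ± 0.34 in KO tumors (SD, n = 6) and -0.09 ± 0.25 in WT tumors (SD, n = 5). The difference of 0.22 was within the spread of the tumors (exact permutation test over 462 splits, two-sided, p = 0.262). Single ratios ran from -0.42 to 0.56 in KO and from -0.46 to 0.22 in WT tumors. With the length trend as an offset, the log2 fold change of Wwtr1 minus that of Yap1 was 0.43, a value that was not tested.

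**Figure D2:**
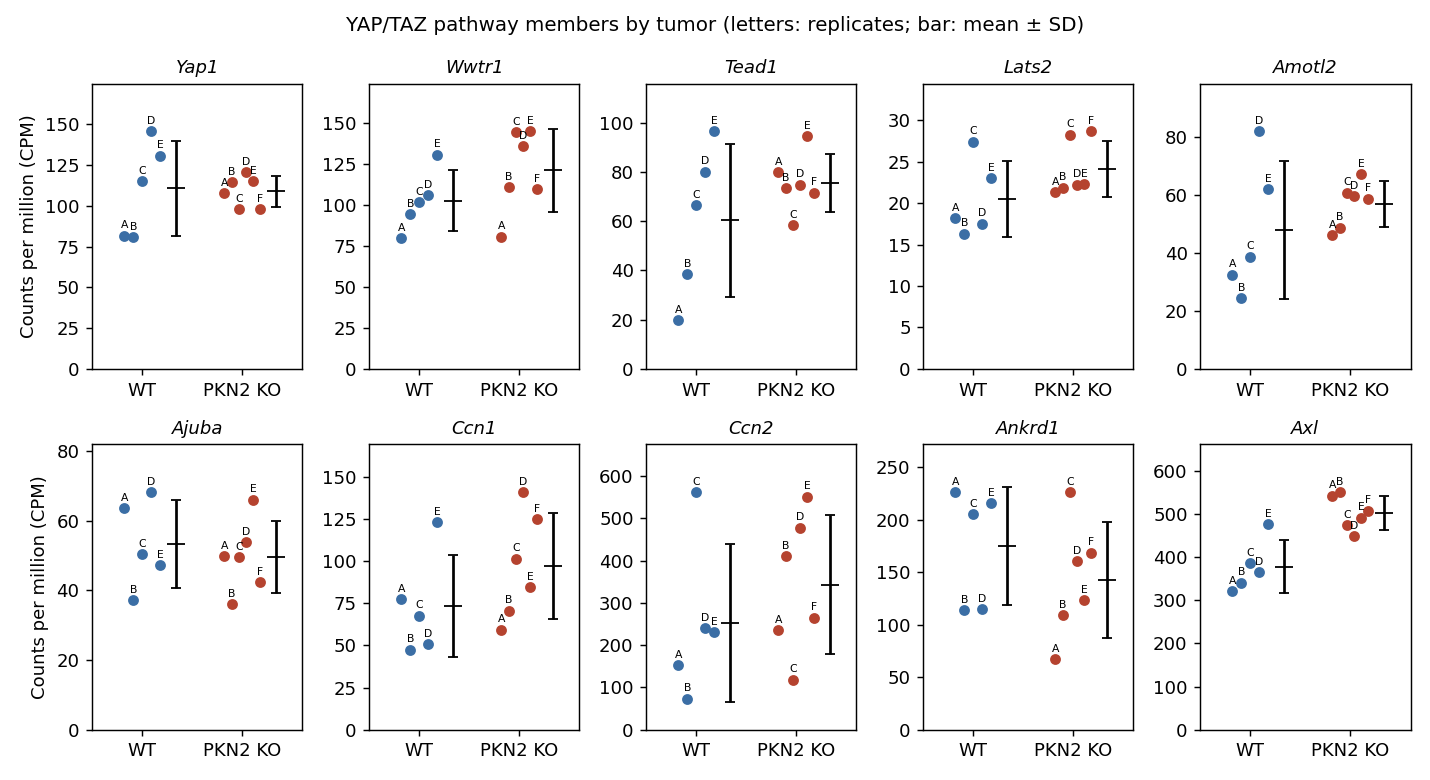
CPM of the 10 genes in each tumor, 1 panel per gene, with WT tumors in blue, PKN2 KO tumors in red, replicate letters above the points and the group mean ± SD as a black bar. WT values of Tead1 run from 19.9 to 96.6 CPM and enclose all KO values, and 4 of 6 KO tumors lie above every WT tumor for Axl.

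Tead1, the TEAD family member on the list (ENSMUSG00000055320, chromosome 7, 112679318 to 112906807, plus strand), was more spread among WT than among KO tumors. Its lowest, median and highest KO values were 58.4, 74.1 and 94.5 CPM, and WT replicates A to E had 19.9, 38.4, 66.7, 80.1 and 96.6 CPM. Both WT libraries that lay below every KO tumor, A and B, were those with the strongest depletion of long transcripts, and Tead1 has the longest exon sequence of the 10 genes at 13570 bases. Fitted on the log2 scale, the difference was 0.32 (SE 0.32, 95% interval -0.37 to 1.01; edgeR, adjusted p = 0.554). It was 0.10 without WT replicate A, 0.20 without WT replicate B, 0.56 without WT replicate E, and 0.14 with the length trend as an offset. The other TEAD genes were chosen for display after their values were seen, except Tead2. Tead2 had the highest level per length of the family, at 16.4 ± 3.95 RPKM in KO and 25.8 ± 15.9 RPKM in WT tumors, followed below Tead1 by Tead3 at 2.76 ± 0.73 RPKM and Tead4 at 2.08 ± 0.90 RPKM over 11 tumors.

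The regulators of the list act on LATS or on YAP itself. Lats2, the kinase that phosphorylates YAP and TAZ and is itself transcribed in response to them (ENSMUSG00000021959, chromosome 14, 57689662 to 57758388, minus strand), had 21.3, 22.3 and 28.7 CPM as lowest, median and highest KO values. WT replicates A to E had 18.2, 16.3, 27.4, 17.5 and 23.1 CPM. All 6 KO tumors were above the WT median and 3 of 5 WT tumors lay below all KO tumors, but WT replicate C was near the top of the KO range. The log2 fold change was 0.23 (SE 0.18, 95% interval -0.15 to 0.61; edgeR, adjusted p = 0.430). It was 0.05 with the length trend as an offset and 0.36 without WT replicate C (edgeR, adjusted p = 0.215).

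Amotl2, an angiomotin that sequesters YAP at junctions and is also a YAP target (ENSMUSG00000032531, chromosome 9, 102716672 to 102733418, plus strand), lay between 46.2 and 67.1 CPM in KO tumors, with a median of 59.1. WT replicates A to E had 32.5, 24.3, 38.7, 82.0 and 62.1 CPM. WT replicates A, B and C were thus below all KO tumors and WT replicate D above all of them. KO tumors had a log2 fold change of 0.24 (SE 0.27, 95% interval -0.34 to 0.83; edgeR, adjusted p = 0.600). It depended on single WT libraries, at 0.53 without WT replicate D, 0.08 without B and 0.13 without A. The share of ribosomal RNA as a covariate gave -0.02, and the length trend as an offset gave 0.16.

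Ajuba, a LIM protein that restrains LATS kinases (ENSMUSG00000022178, chromosome 14, 54567472 to 54577558, minus strand), ran from 36.0 to 66.0 CPM in KO tumors with a median of 49.7. Its WT levels in replicates A to E were 63.7, 37.2, 50.4, 68.2 and 47.2 CPM, so the groups overlapped over nearly their whole range. The log2 fold change was -0.11 (SE 0.19, 95% interval -0.52 to 0.31; edgeR, adjusted p = 0.761). It was 0.0005 without WT replicate D and -0.08 with the length trend as an offset.

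Ccn1 and Ccn2 encode secreted matricellular proteins and are among the most used readouts of YAP/TAZ and TEAD activity. Ccn1 (also Cyr61; ENSMUSG00000028195, chromosome 3, 145646976 to 145649981, minus strand) had 59.4, 93.3 and 141 CPM as lowest, median and highest KO values and 77.4, 47.6, 67.7, 50.7 and 123 CPM in WT replicates A to E. KO replicates D and F were above every WT tumor, and 5 of 6 KO tumors were above the WT median. The estimate on the log2 scale was 0.40 (SE 0.28, 95% interval -0.21 to 1.01; edgeR, adjusted p = 0.393), and 0.68 without WT replicate E (edgeR, adjusted p = 0.0966). It was 0.27 without KO replicate D (edgeR, adjusted p = 0.609). The ribosomal RNA covariate gave 0.22 (edgeR, adjusted p = 0.799), and the length trend as an offset gave 0.56 (edgeR, adjusted p = 0.329). The 4 tumors with the highest Ccn1, KO replicates D, F and C and WT replicate E, were also the 4 with the highest fibroblast marker sums, of 7422, 9453, 9602 and 9475 CPM. In the other 7 tumors that sum was at most 5024 CPM, and whether it accounts for the Ccn1 levels was not tested.

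Ccn2 (also Ctgf; ENSMUSG00000019997, chromosome 10, 24595442 to 24598683, plus strand) varied most between tumors of the same genotype, with a coefficient of variation of 47.8% in KO and 73.8% in WT tumors. The KO tumors ran from 118 to 552 CPM with a median of 338, and WT replicates A to E had 154, 73.7, 563, 239.8 and 231 CPM. The highest and the lowest values of all 11 tumors were both WT, in replicates C and B. The log2 fold change was 0.44 (SE 0.47, 95% interval -0.58 to 1.47; edgeR, adjusted p = 0.582). It was 0.97 without WT replicate C (edgeR, adjusted p = 0.205), 0.21 without WT replicate B and 0.26 without KO replicate E. The length trend as an offset gave 0.52, and the share of ribosomal RNA as a covariate gave 0.05. The interval spans changes from 0.67-fold to 2.77-fold. KO replicate C, with the highest fibroblast marker sum, had the lowest Ccn2 of the KO group. Ccn2 overlaps the antisense gene Gm15270 over 665 exon bases, and that gene had 23 to 97 counts per tumor.

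Ankrd1, a nuclear ankyrin-repeat protein of muscle and stressed mesenchymal cells and a common YAP target (ENSMUSG00000024803, chromosome 19, 36111961 to 36120099, minus strand), had its estimate in the opposite direction. Its lowest, median and highest KO values were 67.1, 142 and 226 CPM, and WT replicates A to E had 227, 114, 206, 115 and 216 CPM. Of the KO tumors, 5 of 6 were below the WT median. On the log2 scale the fold change was -0.30 (SE 0.30, 95% interval -0.94 to 0.34; edgeR, adjusted p = 0.549). It stayed below 0 in 20 alternative settings, from -0.49 without KO replicate C to -0.16 without KO replicate A. The length trend as an offset gave -0.21.

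**Figure D3:**
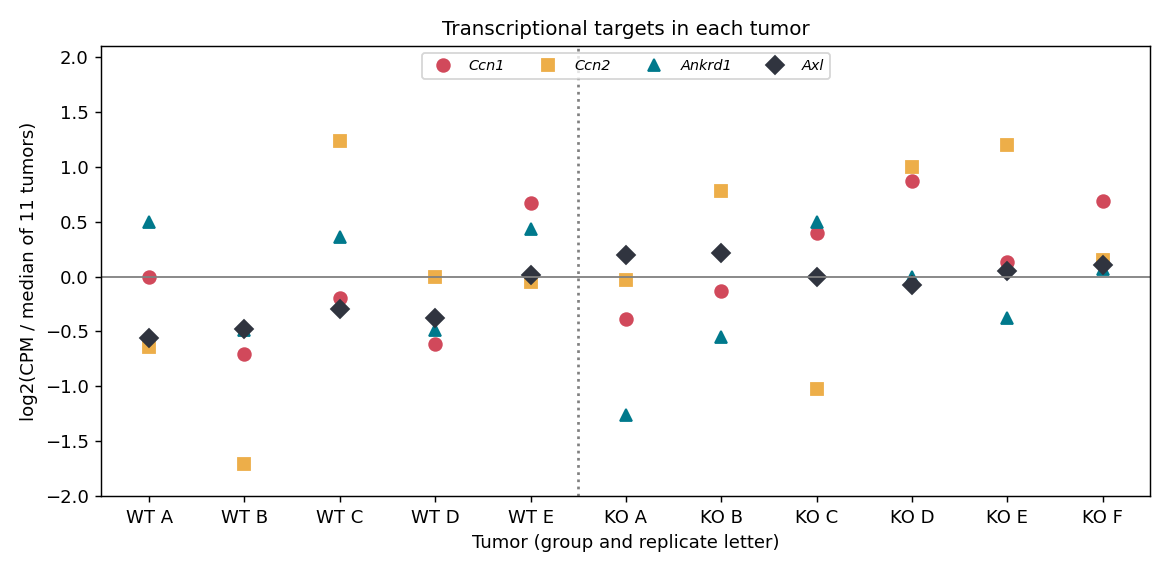
log2 of CPM divided by the median of all 11 tumors for Ccn1, Ccn2, Ankrd1 and Axl in each tumor, with the WT tumors to the left of the dotted line and the PKN2 KO tumors to its right. The genes take different orders from tumor to tumor, as in KO replicate C, where Ccn2 was at 118 CPM and Ankrd1 at 226 CPM.

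Axl, a receptor tyrosine kinase that binds GAS6 and a direct YAP target (ENSMUSG00000002602, chromosome 7, 25757273 to 25788705, minus strand), came closest to separating the groups. KO tumors had 449, 499.6 and 551 CPM as lowest, median and highest values, and WT replicates A to E had 321, 341, 386, 365 and 477 CPM. WT replicate E was the only WT tumor inside the KO range, and the other 4 were below it. Means were 502 ± 39.4 CPM in KO (SD, n = 6) and 378 ± 60.5 CPM in WT tumors (SD, n = 5). Fitted on the log2 scale, the difference was 0.41 (SE 0.15, 95% interval 0.08 to 0.74; unadjusted p = 0.0187) and did not pass after adjustment (edgeR's quasi-likelihood test, adjusted p = 0.137). Of 20 alternative settings it passed in 2, at 0.51 without WT replicate E, the one WT tumor inside the KO range (edgeR, adjusted p = 0.0442), and at 0.43 with DESeq2 (adjusted p = 0.0484). Over all genes, 608 were called higher and 1248 lower without WT replicate E, and 595 and 900 with DESeq2. In the other 18 it did not pass, with 0.34 once the share of ribosomal RNA was a covariate (edgeR, adjusted p = 0.393) and 0.34 with the length trend as an offset (edgeR, adjusted p = 0.148). It was 0.42 with the replicate letter as a block, a fit that left out KO replicate F (edgeR, adjusted p = 0.332). Under the block its unadjusted p was no longer under 0.05. Axl is expressed by macrophages and fibroblasts as well as carcinoma cells. Macrophage markers summed to 2099 to 3911 CPM in KO and 1540 to 2806 CPM in WT tumors. Fibroblast markers summed to 4521 to 9602 CPM in KO and 2579 to 9475 CPM in WT tumors. All 8 markers of each type were fitted higher in KO tumors. WT replicate E, with the highest WT Axl, had 1748 CPM of macrophage and 9475 CPM of fibroblast markers. WT replicates A and B, with the lowest Axl, had 2593 and 2806 CPM of macrophage markers, and 2579 and 4474 CPM of fibroblast markers. In KO tumors, replicate B had the highest Axl, with sums of 2455 and 5024 CPM. KO replicate D had the lowest, with 2247 and 7422 CPM. The part of either cell type in the Axl difference was not tested.

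**Figure D4:**
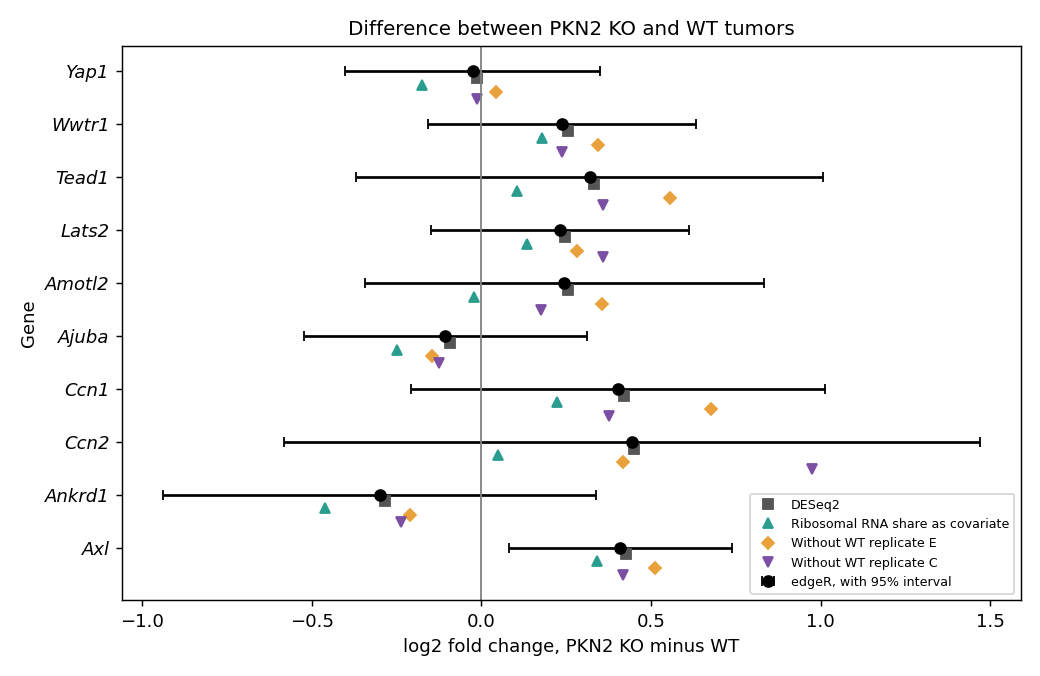
log2 fold change (PKN2 KO minus WT) of the 10 genes from edgeR, with 95% intervals (black), and the estimates from DESeq2, with the share of ribosomal RNA as covariate, and without WT replicates E or C. The Axl interval, from 0.08 to 0.74, does not include 0, and the Ccn2 estimate moves from 0.44 to 0.97 without WT replicate C.

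Counted together, 0 of the 10 genes were called higher and 0 lower after adjustment, where 0.0181% and 0% of all 16536 genes were called. At an unadjusted p under 0.05, 1 gene, Axl, was higher and 0 were lower, against 8.57% and 15.5% of all genes tested. No gene of the list had groups without overlap in CPM, against 1.59% higher and 1.98% lower over all genes. The estimate was above 0 for 7 of the 10 genes, against 48.0% of all genes, and the median of the 10 was 0.24 on the log2 scale, against -0.03 for all genes. Estimates below 0 were those of Yap1, Ajuba and Ankrd1. With the share of ribosomal RNA as a covariate, each of the 10 estimates was lower, with Ccn2 at 0.05 and Amotl2 at -0.02. The length trend as an offset raised those of Ccn1, Ccn2, Ankrd1 and Ajuba and lowered the others. The median here and the list medians below come from the fit without covariate or offset. The part of library composition in them was not tested. The 10 genes were measured in the same tumors and are not independent of each other.

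The wider pathway was described with a list of 33 Hippo and YAP/TAZ pathway genes, of which 31 were tested. Yap1, Wwtr1, Tead1, Lats2, Amotl2 and Ajuba are on this list and are counted again. None passed the adjusted threshold in either direction, 2 were higher and 0 lower at an unadjusted p under 0.05, and 21 had estimates above 0, with a median of 0.23. Over all genes the shares were 8.57% higher, 15.5% lower and 48.0% above 0. Those with the smallest p above 0 were Taok3, a kinase upstream of MST1/2, at 0.70 (SE 0.29, edgeR adjusted p = 0.163), Vgll4, a TEAD cofactor that competes with YAP, at 0.44 (SE 0.19, edgeR adjusted p = 0.186), and Mob1b, a LATS activator, at 0.31 (SE 0.15, edgeR adjusted p = 0.237). Below 0 they were Tead2 at -0.65 (SE 0.32, edgeR adjusted p = 0.228) and the LIM proteins Wtip at -0.63 (SE 0.31, edgeR adjusted p = 0.232) and Limd1 at -0.26 (SE 0.16, edgeR adjusted p = 0.328). Without WT replicate B, the highest tumor for Tead2 at 252 CPM, Tead2 was at -0.22 and Wtip at -0.37 (edgeR, adjusted p = 0.541). Limd1 was at -0.17 without WT replicate C. The estimates above 0 also moved when 1 tumor was left out. Taok3 ranged from 0.50 without WT replicate B (edgeR, adjusted p = 0.281) to 1.02 without WT replicate C. Vgll4 ranged from 0.33 without WT replicate C to 0.60 without WT replicate E. Mob1b ranged from 0.22 without WT replicate A to 0.43 without WT replicate C. Vgll1 and Vgll2, cofactors that bind TEAD in place of YAP, were not tested and were under 1 CPM in every tumor.

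Among 22 commonly used YAP/TAZ target genes, all tested, the count after adjustment was again 0 in both directions, with 2 higher and 1 lower at an unadjusted p under 0.05. Of the 22, 16 had estimates above 0, with a median of 0.25. Lats2, Amotl2, Ccn1, Ccn2, Ankrd1 and Axl are among the 22 and are counted again, and Ptpn14 is also on the Hippo list. The same all-gene shares, 8.57%, 15.5% and 48.0%, stand beside these counts. Next to Axl stood Arhgef17 at 0.87 (SE 0.33, edgeR adjusted p = 0.141), at means of 79.0 ± 17.98 CPM for KO tumors and 43.2 ± 24.0 CPM for WT tumors, and Dock5, a Rac exchange factor, at 0.49 (SE 0.26, edgeR adjusted p = 0.266). Gadd45a, a stress-response gene, had the smallest p of those below 0, at -0.92 (SE 0.33, edgeR adjusted p = 0.129), at means of 38.8 ± 11.6 CPM for KO tumors and 73.8 ± 44.2 CPM for WT tumors. Foxf2, a mesenchymal transcription factor, at -0.46 (edgeR, adjusted p = 0.324) and F3, which encodes tissue factor, at -0.36 (edgeR, adjusted p = 0.400) followed. Without WT replicate B, Gadd45a was at -0.51 (edgeR, adjusted p = 0.343) and Foxf2 at -0.18 (edgeR, adjusted p = 0.743), whereas F3 was at -0.54. Arhgef17 was then at 0.70 and Dock5 at 0.33.

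Quantitative PCR primers of the study covered a set of YAP-related transcripts: Ankrd1, Cavin2, Amotl2, Anln, Diaph3 and Flna. Ankrd1 and Amotl2 are also on lists above and are counted again. In the tumors none of these 6 passed the adjusted threshold, 1 was higher at an unadjusted p under 0.05, and 5 had estimates above 0, beside 8.57% and 48.0% of all genes. That gene was Flna, the actin crosslinker filamin A, at a log2 fold change of 0.80 (SE 0.25, unadjusted p = 0.00781, edgeR adjusted p = 0.1098), at 901 to 1139 CPM across KO tumors and 322 to 906 CPM across WT tumors. Without WT replicate E it was at 1.04 and passed (edgeR, adjusted p = 0.0282). In that setting 608 of all genes were called higher and 1248 lower. Cavin2, a component of caveolae, was at 0.29 (edgeR, adjusted p = 0.389) and the formin Diaph3 at 0.39 (edgeR, adjusted p = 0.417).

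**Figure D5:**
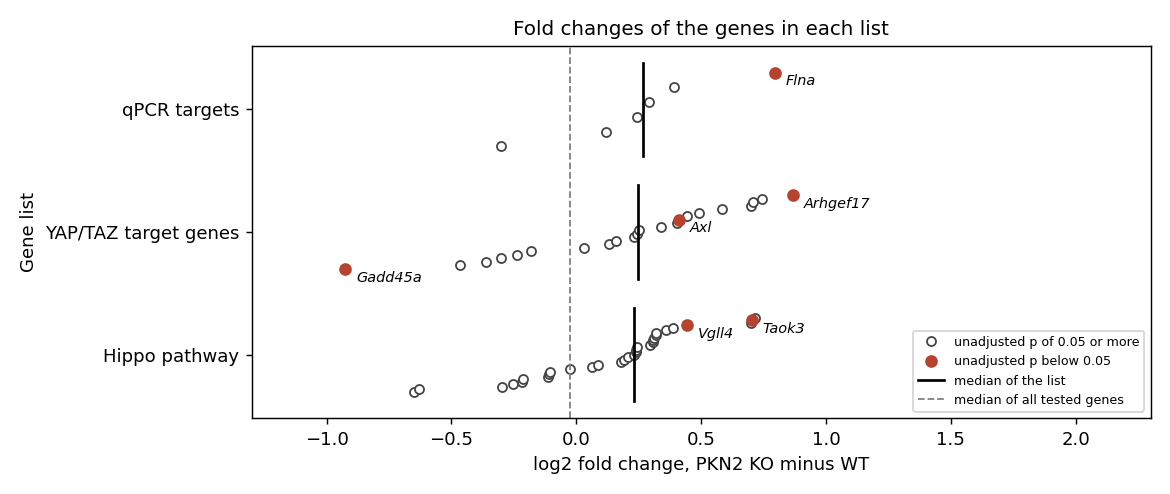
log2 fold changes (PKN2 KO minus WT) of single genes in the lists of Hippo pathway genes, YAP/TAZ target genes and genes measured by quantitative PCR, with filled points for an unadjusted p under 0.05, a black line at the median of each list and a dashed line at the median of all tested genes. List medians, from the fit without covariate or offset, are 0.23, 0.25 and 0.27, and no gene passed the adjusted threshold.

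Across the 11 tumors, the genes whose log2 CPM followed Ccn1 most closely were Nox4, an NADPH oxidase, with a Pearson r of 0.927, Prrg1 with 0.917 and Rab11fip5, a Rab11 effector, with 0.911. For Ccn2 they were Atp1b1, a sodium pump subunit, with 0.939, Spry1, an inhibitor of receptor tyrosine kinase signaling, with 0.920 and the predicted gene Gm47889 with 0.912. For Yap1 they were the desaturase Scd2 and Pcnx3, each with 0.966, and the glycosyltransferase Alg2 with 0.962. An r above 0.9 was reached by 6 genes for Ccn1, 7 for Ccn2 and 100 for Yap1. Without the 2 tumors farthest from the median, r over 9 tumors was 0.9753 for Nox4, 0.894 for Prrg1 and 0.849 for Rab11fip5, then 0.905 for Atp1b1, 0.867 for Spry1 and 0.836 for Gm47889, and 0.921 for Scd2, 0.926 for Pcnx3 and 0.906 for Alg2. These values describe shared order over tumors that also share depth and composition, and the genes were chosen from all 16536 for their high r.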

How the data were processed

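RNA was extracted from 11 tumors, and strand-specific libraries were sequenced. According to the submitters' processing notes and the study's methods, reads were trimmed with Trimmomatic, aligned to mm10 with HISAT2 2.1.0 and counted per gene with HTSeq 0.11.2. The authors deposited raw counts, as whole numbers, and normalized values, a signal equal to each count divided by 1 size factor per library (0.514 to 1.42). All tests used the raw counts.

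Of 54232 Ensembl identifiers, 54165 matched GENCODE M21, which supplied symbols, positions and exon lengths. Genes passing filterByExpr (16536) were tested with edgeR 4.0.16 in R 4.3.3, using TMM scaling, a quasi-likelihood F-test without covariates and Benjamini-Hochberg adjustment over all 16536 genes. The script was tested on simulated data. CPM used TMM-scaled library sizes, and RPKM divided CPM by kilobases of exon in union. Depth gave a floor of 3 counts, or 0.0964 to 0.184 CPM, covering counting error only, and every tumor had at least 196 counts of each gene. Replicate libraries differed beyond sampling noise (lowest chi-square per degree of freedom 33.9). The Wwtr1 to Yap1 ratio had a pseudocount of 0.5 and an exact permutation test, whose smallest p is 0.00216.

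The genes, lists and tests were chosen with earlier results of these data known. Besides the 10 genes and Pkn2, each list contributed genes past the adjusted threshold and, where fewer than 3 passed in a direction, those of smallest unadjusted p until 3 were named. For Ccn1, Ccn2 and Yap1 the 3 genes of highest Pearson r were named. Alternatives were DESeq2 1.42.0, limma 3.58.1 voom with sample weights, RLE scaling, other count filters, a replicate block without KO replicate F, the ribosomal RNA share as covariate and leaving out each tumor. Leaving out WT replicates B and E together and an exon length offset were added after the data had been seen. Python 3.11.15, SciPy 1.17.1 and matplotlib 3.10.9 were used for tables and figures.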

Additional observations from a re-analysis of the deposited data

Results flagged for a closer look

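Groups of values were checked for a single distant tumor by the gap to its neighbor over the range of the group, against Dixon's critical value for the group size. Of 42 groups, of which chance gives about 2.1, 6 sums of cell type markers and none of the 10 genes passed it. WT replicate E had 9475 CPM of fibroblast markers, where the other WT tumors had 2579 to 4474. It also had the highest WT levels of Wwtr1, Tead1, Ccn1 and Axl. WT replicate E further had 37.1 CPM of B cell markers, where the others had 6.67 to 12.9, and 1859 CPM of acinar markers, where the others had 12.9 to 210.1. KO replicate E had 689 CPM of acinar markers, against 7.31 to 13.4 in the other KO tumors, and the highest Wwtr1, Tead1, Amotl2, Ajuba and Ccn2 of its group. KO replicate F had 3911 CPM of macrophage markers, against 2099 to 2764 in the other KO tumors. WT replicate B had 1066 CPM of neutrophil markers, against 187 to 333 in the other WT tumors, and the lowest Yap1, Ccn1, Ccn2, Amotl2 and Lats2 of all tumors. The part of these sums in the levels of the 10 genes was not tested.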

How the results depend on the processing

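The count of the 10 genes called lower stayed at 0 under each of 20 alternatives. The count called higher, 0, became 1 (Axl) with DESeq2, and was 0 to 1 when 1 tumor was left out, with 1 only without WT replicate E. Of 200 single-gene estimates, 190 kept their direction and their side of the threshold, 2 passed it (Axl) and 8 changed sign. Yap1 became 0.0155 without a filter, 0.0215 with voom sample weights and 0.0394 with a replicate block, and ranged from -0.121 to 0.0941 when 1 tumor was left out. Amotl2 became -0.0232 with the ribosomal RNA covariate. Ajuba ranged from -0.210 to 0.000477 when 1 tumor was left out. The cause of these changes was not tested. Counts over all genes, higher and lower, were 3 and 0 with edgeR, 595 and 900 with DESeq2, 39 and 6 without a filter, 7 and 1 with the block, 68 and 28 with the length offset, 30 and 2 without KO replicate F, 203 and 651 without WT replicate D and 608 and 1248 without WT replicate E, the last of which again called Axl. In 10 of 20 settings 0 genes were called in either direction: voom, at least 10 counts in every tumor, and without each of KO replicates A to E and WT replicates A to C. Same-letter tumors did not deviate together (correlations from -0.135 to 0.118), so the letters were not taken as pairs. The replicate block, fitted without KO replicate F because its letter has no WT tumor, changed no adjusted call among the 10 genes. It took the count at an unadjusted p under 0.05 from 1 (Axl) to 0. With 5 and 6 tumors and WT spreads as given, the 95% intervals, from -0.94 to 1.47 across the genes, are the limit on any statement of no difference.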
